A study of Homo sapiens with 4 samples.

Results

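The genes described here are 9 components of the tight junction, measured by RNA-seq among 58735 annotated genes. They are the claudin genes CLDN1, CLDN3, CLDN4, CLDN6, CLDN7 and CLDN12, the occludin gene OCLN, the ZO-1 gene TJP1 and the JAM-A gene F11R. The set was chosen by measured values of these same libraries, under the rule that CLDN1 falls in shNME7 while other junction genes do not. Differences between the groups are therefore given for these genes as a description, with no test. That wording is the rule's own. CLDN12, TJP1 and F11R also had lower means in shNME7, and CLDN3, CLDN4, CLDN7 and OCLN higher ones, as given below. Of the 4 libraries, 2 came from shNME7 cells, which carry a short hairpin RNA against NME7, and 2 from shCtrl cells, which carry a control hairpin. All are labelled Huh7, a line from a human liver cancer, and the labels name no dose, time, clone or further treatment. The labels do not say whether the libraries of a group stem from different cultures, and every p-value here therefore reflects the spread between libraries, which may be technical only.

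The libraries held between 14877906 and 16991397 fragments, which were recovered from the deposited FPKM values (fragments per kilobase of gene length, scaled by the size of the library). NME7 itself stood at 0.835 and 0.626 FPKM in shNME7 1 and 2, against 3.64 and 3.93 FPKM in shCtrl 1 and 2. Markers of the hepatocyte lineage were at or near 0 in every library, which goes against the label. None of the 10 genes on that list, among them ALB, AFP, APOB and HNF4A, reached 1 FPKM in any library, and 4 of them had no fragment at all. The summed level of the list was 0.110 and 0.0858 FPKM in shNME7 1 and 2, against 0.0564 and 0.106 FPKM in shCtrl 1 and 2. Huh7 cells are known for secreting albumin and alpha-fetoprotein, so the material is called here only by its label and hairpin. The cadherin gene CDH1 and the epithelial adhesion gene EPCAM had at most 3 fragments in any library, whereas the keratin gene KRT7 stood at 146 and 182 FPKM in shNME7 1 and 2, against 164 and 137 FPKM in shCtrl 1 and 2. Of the other marker lists, the leukocyte and squamous lists had no gene at 1 FPKM, the cholangiocyte list had KRT7 alone of 4, and the fibroblast and endothelial lists had 3 of 5 and 1 of 4. The summed fibroblast level was 23.6 and 20.7 FPKM in shNME7 1 and 2, against 26.8 and 25.2 FPKM in shCtrl 1 and 2, and its part in the results below was not tested. The endothelial sum was 2.81 and 3.47 FPKM in shNME7 1 and 2, against 2.29 and 1.94 FPKM in shCtrl 1 and 2.

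Tight junctions seal the space between neighbouring epithelial cells and separate the apical from the lateral membrane. Claudins are membrane proteins whose extracellular loops pair across the gap and form either a barrier or a selective pore, so the mix of claudins in a cell sets which ions pass. Occludin and JAM-A are further membrane proteins of the junction, and ZO-1 is the cytoplasmic scaffold that ties claudins to actin. In hepatocytes these junctions border the bile canaliculi, and CLDN1 and occludin also serve the hepatitis C virus as entry factors.

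The start regions of the genes are shown first, because the zinc finger repressors SNAI1 and SNAI2, measured below, are known to bind E-box sequences of claudin promoters. RefSeq start regions on GRCh38.p14, with 250 bases before the start and 50 after it, were found for 8 of the 9 genes, in 13 entries. Capitals mark the E-box letters CACCTG or CAGGTG and the GC-box letters GGGCGG or CCGCCC, each searched on both strands. The 4 entries below are CLDN1 (chr3:190322397-190322696, minus strand), the member with the lowest relative level in shNME7, and 3 claudins for comparison. These are CLDN3 (chr7:73770221-73770520, minus strand), CLDN7 (chr17:7262429-7262728, minus strand) and CLDN12 (chr7:90403211-90403510, plus strand).
CLDN1: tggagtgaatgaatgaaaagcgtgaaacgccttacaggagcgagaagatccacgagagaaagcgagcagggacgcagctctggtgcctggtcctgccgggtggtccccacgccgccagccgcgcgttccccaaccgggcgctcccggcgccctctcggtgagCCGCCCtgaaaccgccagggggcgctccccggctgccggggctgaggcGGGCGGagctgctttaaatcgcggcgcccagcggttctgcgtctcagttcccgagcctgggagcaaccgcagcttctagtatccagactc
CLDN3: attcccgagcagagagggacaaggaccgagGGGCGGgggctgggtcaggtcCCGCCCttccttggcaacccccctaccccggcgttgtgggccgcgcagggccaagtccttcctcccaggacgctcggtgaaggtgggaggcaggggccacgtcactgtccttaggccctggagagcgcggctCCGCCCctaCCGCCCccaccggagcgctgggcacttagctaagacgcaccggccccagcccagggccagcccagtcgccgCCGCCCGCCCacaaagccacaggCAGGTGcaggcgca
CLDN7: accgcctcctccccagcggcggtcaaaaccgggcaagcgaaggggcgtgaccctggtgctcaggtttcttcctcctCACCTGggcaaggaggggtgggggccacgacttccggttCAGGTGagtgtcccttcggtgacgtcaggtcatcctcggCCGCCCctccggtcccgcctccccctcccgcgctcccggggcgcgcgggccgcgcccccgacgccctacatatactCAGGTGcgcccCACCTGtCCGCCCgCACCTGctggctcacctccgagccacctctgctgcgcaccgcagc
CLDN12: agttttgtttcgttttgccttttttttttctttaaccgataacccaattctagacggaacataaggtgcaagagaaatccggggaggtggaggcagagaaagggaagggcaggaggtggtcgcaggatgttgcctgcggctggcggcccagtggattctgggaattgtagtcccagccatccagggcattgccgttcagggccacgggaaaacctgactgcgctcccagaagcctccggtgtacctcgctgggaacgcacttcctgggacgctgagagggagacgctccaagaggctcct
The CLDN1 window held no E-box of these letters and 2 GC-boxes, and that of CLDN12 held neither. The CLDN3 window held 1 E-box and 6 GC-boxes, of which a pair overlap, and that of CLDN7 held 5 E-boxes and 2 GC-boxes. A second CLDN7 entry, further upstream, held neither. The RefSeq start lay at the GENCODE 29 gene start for CLDN3, and 29, 1505 and 19740 bases inside the gene for CLDN1, CLDN7 and CLDN12. Over all 13 entries 6 held the E-box and 9 the GC-box, against 20.6% and 45.0% of 35116 start regions of the same length in RefSeq. The entries are not independent, since TJP1, CLDN7 and OCLN have several each and the OCLN windows overlap each other. Most of the windows were also richer in GC than the median of 58.7% over all start regions. No excess is read from these counts. The TATA-box letters TATAAA occurred in none of the 13 entries, against 11.5% of all start regions. The core GGAATG that TEAD factors bind was also in none, against 14.0% of all, and so was the core TGATGNAA that ATF4 binds with C/EBP partners, against 3.62% of all. With 13 entries that are not independent, no lack is read from these absences. A match of letters is a description of the window and says nothing about binding in these cells.

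CLDN1, the claudin that forms the barrier of many epithelia and is prominent in liver, stood at 3.61 and 2.97 FPKM in shNME7 1 and 2, against 7.0 and 7.51 FPKM in shCtrl 1 and 2. The shNME7 values were both below the shCtrl values, and the gap between the groups was wider than the gap within either of them. The group means were 3.29 ± 0.453 FPKM in shNME7 and 7.26 ± 0.364 FPKM in shCtrl (SD, n = 2 each), a level 2.20-fold lower in shNME7. The difference in log2(FPKM + 1), shNME7 minus shCtrl, was -0.95, with an SD of 0.12 within groups, and it is the value on which the set was chosen. Of the 12866 genes tested, 57 had a lower difference.

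The CLDN1 values rest on 199 and 185 fragments in shNME7 1 and 2, against 408 and 444 in shCtrl 1 and 2. Exact Poisson 95% intervals, which cover counting error only, ran from 172 to 229 and from 159 to 214 fragments in shNME7 1 and 2. In shCtrl 1 and 2 they ran from 369 to 450 and from 404 to 487 fragments. They show the counting precision of each value and are no test, since the set was chosen on this difference. In bulk RNA, fewer cells with the transcript and less of it per cell cannot be told apart.

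**Figure D1:**
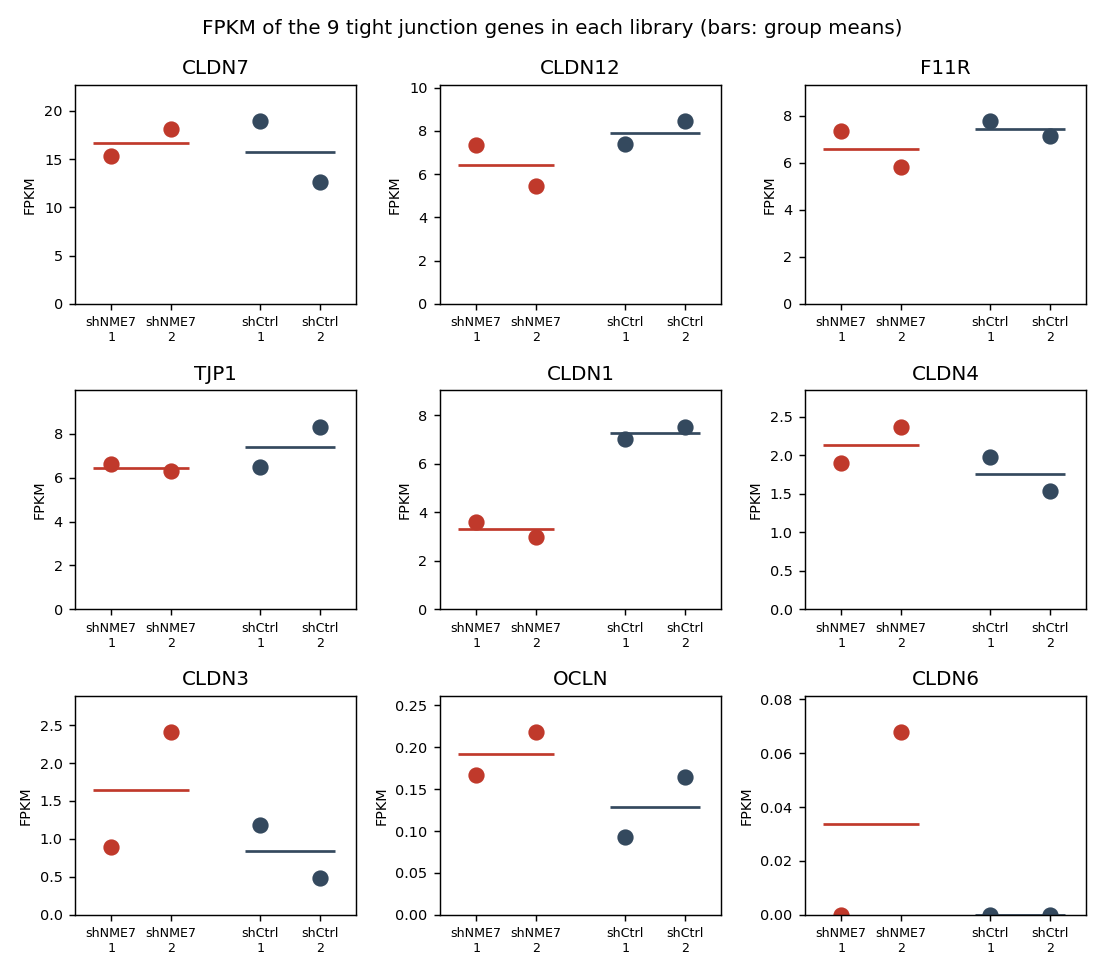
FPKM (y axis, linear from 0, own scale per panel) of the 9 genes in shNME7 1 and 2 (red) and shCtrl 1 and 2 (dark blue), with bars at the group means. CLDN1 stood at 3.61 and 2.97 FPKM in shNME7 and at 7.0 and 7.51 FPKM in shCtrl, while the points of CLDN7, CLDN4, CLDN3, TJP1 and F11R overlap between the groups.

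CLDN7, a claudin of simple epithelia that is also found along the lateral membrane, was the most abundant of the 9 genes. It stood at 15.3 and 18.1 FPKM in shNME7 1 and 2, against 18.9 and 12.6 FPKM in shCtrl 1 and 2. The shCtrl libraries enclosed both shNME7 libraries, and the log2 difference of 0.10 was smaller than the SD of 0.30 within groups. Its sign turned without shCtrl 2 (-0.17), without shNME7 2 (-0.01) and with the trend on GC content and length removed (-0.05), so no direction can be given.

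CLDN12, an unusual claudin that lacks the common C-terminal PDZ-binding motif, stood at 7.36 and 5.47 FPKM in shNME7 1 and 2, against 7.38 and 8.43 FPKM in shCtrl 1 and 2. Both shNME7 libraries were the lower ones, but shNME7 1 and shCtrl 1 were almost level. The log2 difference was -0.27 with an SD of 0.20 within groups, and it was -0.09 without shNME7 2 and -0.46 without shNME7 1.

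CLDN4, a claudin that tightens the junction against sodium, stood at 1.90 and 2.37 FPKM in shNME7 1 and 2, against 1.98 and 1.53 FPKM in shCtrl 1 and 2. The groups overlapped, and the log2 difference of 0.19 was close to the SD of 0.16 within groups. It was 0.07 without shCtrl 2, 0.08 without shNME7 2, 0.30 without shCtrl 1 and 0.29 without shNME7 1. CLDN3, a sealing claudin encoded next to CLDN4, stood at 0.888 and 2.40 FPKM in shNME7 1 and 2, against 1.18 and 0.487 FPKM in shCtrl 1 and 2. Only 17 and 52 fragments lay behind it in shNME7 1 and 2, against 24 and 10 in shCtrl 1 and 2. The groups overlapped, and the higher shNME7 mean came from shNME7 2, since the log2 difference of 0.49 was 0.07 without that library. It was 0.21 without shCtrl 2, 0.77 without shCtrl 1 and 0.92 without shNME7 1. At these low counts it also depended on the scale, with 0.86 at a pseudocount of 0.1 and 0.96 in limma-voom.

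CLDN6, a claudin of early embryonic tissue that many germ cell tumours express, had 0 and 2 fragments in shNME7 1 and 2 and 0 in both shCtrl libraries. A count of 0 allows up to 3 fragments, so CLDN6 was not detectable above that limit in any library. No fold is given for it.

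Of the junction proteins outside the claudin family, OCLN was close to the detection limit. Occludin, a membrane protein with several membrane-spanning segments like the claudins, had 17 and 25 fragments in shNME7 1 and 2, against 10 and 18 in shCtrl 1 and 2. The levels were 0.167 and 0.218 FPKM in shNME7 1 and 2, against 0.0929 and 0.165 FPKM in shCtrl 1 and 2. Each shNME7 level was above either shCtrl level, but shNME7 1 and shCtrl 2 were almost equal, and the Poisson intervals of all 4 libraries shared the range from 16.2 to 18.4 fragments. OCLN and CLDN6 did not pass the filter of a mean of 1 FPKM, so 7 of the 9 genes were among those tested across the table.

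TJP1, the gene of the scaffold ZO-1, stood at 6.61 and 6.29 FPKM in shNME7 1 and 2, against 6.49 and 8.31 FPKM in shCtrl 1 and 2. Only shCtrl 2 stood apart from the other libraries, and the log2 difference of -0.17 became -0.01 without it and -0.32 without shCtrl 1. F11R, which encodes the immunoglobulin-like adhesion molecule JAM-A, stood at 7.33 and 5.82 FPKM in shNME7 1 and 2, against 7.75 and 7.13 FPKM in shCtrl 1 and 2. The groups overlapped, and its log2 difference of -0.16 became -0.02 without shNME7 2 and -0.31 without shNME7 1.

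Of the 7 genes that passed the filter, 4 had a lower mean in shNME7 and 3 a higher one. CLDN1 and CLDN12 were lower in each shNME7 library than in either shCtrl library, and none of the 7 was higher in this sense. Over all 12866 genes tested, 18.4% lay below in this way and 17.8% above, and nothing is read from the members' count because their values chose them. The median log2 difference of the 7 was -0.16, and that of the 6 without CLDN1 was -0.03, against 0.01 over all tested genes. The 6 ran from -0.27 for CLDN12 to 0.49 for CLDN3.

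Ordered by FPKM, which compares genes per length, CLDN7 came first in both groups, with no overlap with the next gene. In shCtrl, CLDN12, F11R, TJP1 and CLDN1 followed at means of 7.91, 7.44, 7.40 and 7.26 FPKM, and each of them overlapped its neighbour over the 2 libraries. In shNME7, F11R, TJP1 and CLDN12 followed at means of 6.58, 6.45 and 6.42 FPKM and overlapped each other, whereas CLDN1 at 3.29 FPKM lay below that group with no overlap. CLDN4, CLDN3, OCLN and CLDN6 came after CLDN1 in both groups. CLDN4 and CLDN3 overlapped in shNME7 but not in shCtrl.

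The claudin mix of each library followed from these levels. CLDN1 made up 12.4% and 9.47% of the summed FPKM of the 6 claudins in shNME7 1 and 2, against 19.2% and 24.6% in shCtrl 1 and 2. CLDN7 held the largest share everywhere, at 52.7% and 57.7% in shNME7 1 and 2, against 51.9% and 41.2% in shCtrl 1 and 2. The sum itself was 29.1 and 31.4 FPKM in shNME7 1 and 2, against 36.5 and 30.6 FPKM in shCtrl 1 and 2, and overlapped between the groups. Without CLDN1 the remaining 5 claudins summed to 25.5 and 28.4 FPKM in shNME7 1 and 2, inside the span of 29.5 and 23.1 FPKM in shCtrl 1 and 2. Over all 24 annotated claudin genes the CLDN1 share was 9.96% and 7.55% in shNME7 1 and 2, against 16.3% and 20.2% in shCtrl 1 and 2.

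**Figure D2:**
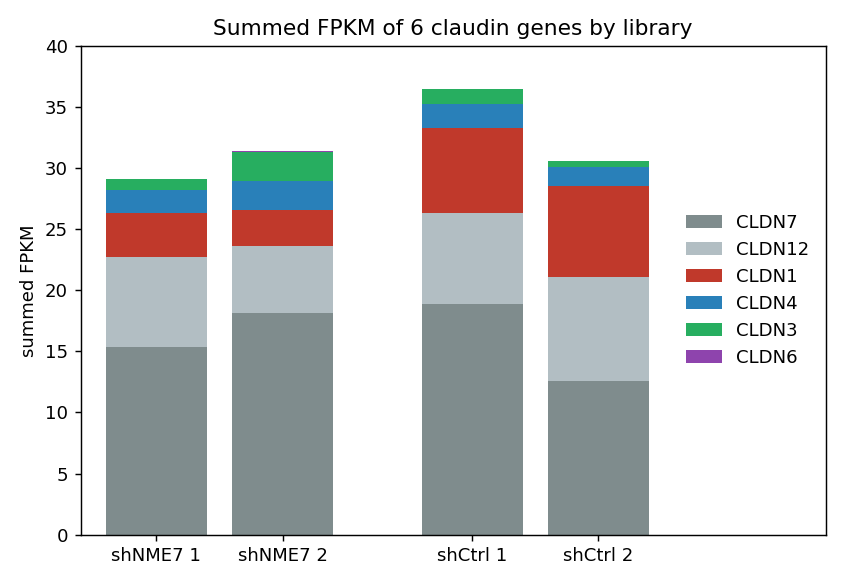
Summed FPKM (y axis, linear from 0) of the 6 claudin genes in each library, stacked by gene, with shNME7 1 and 2 left of shCtrl 1 and 2. The CLDN1 segment (red) spans 3.61 and 2.97 FPKM in shNME7 and 7.0 and 7.51 FPKM in shCtrl, and CLDN6 is too low to see.

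The levels of several members moved with the GC content of their transcripts, a property in which the libraries differed. Over 12857 tested genes with a GC value, the deviation of a library from the gene mean had a Spearman correlation with GC of -0.373 and 0.657 in shNME7 1 and 2, and of 0.259 and -0.619 in shCtrl 1 and 2. The log2 difference between the groups also had a Spearman correlation of 0.411 with GC. These are correlations across genes, which are not independent replicates. The median log2 difference was -0.11 for genes of 35% to 40% GC, 0.11 at 55% to 60% and 0.19 at 65% to 70%. Of the 7 members that passed the filter, the 3 with the highest GC were CLDN3 at 69.2%, CLDN7 at 59.6% and CLDN4 at 57.5%. All 3 were higher in shNME7 2 than in shNME7 1 and higher in shCtrl 1 than in shCtrl 2. Within each pair of libraries this is the direction of the median gene of like GC. CLDN12, with the lowest GC at 38.1%, ran the other way in both groups.

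CLDN1 has a GC content of 41.5%, and the 2782 tested genes with a GC content between 40% and 45% had a median log2 difference of -0.06. Its deviations from its own mean were -0.37 and -0.58 in shNME7 1 and 2, against 0.43 and 0.52 in shCtrl 1 and 2. The medians of genes in that GC range were 0.04 and -0.10 in shNME7 1 and 2, against -0.03 and 0.09 in shCtrl 1 and 2. With the trend on GC content and length removed from each library, the CLDN1 difference was -0.90. The same step brought the other tested members nearer to 0, to 0.24 for CLDN3, 0.09 for CLDN4, -0.05 for CLDN7, -0.16 for CLDN12, -0.07 for TJP1 and -0.13 for F11R.

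**Figure D3:**
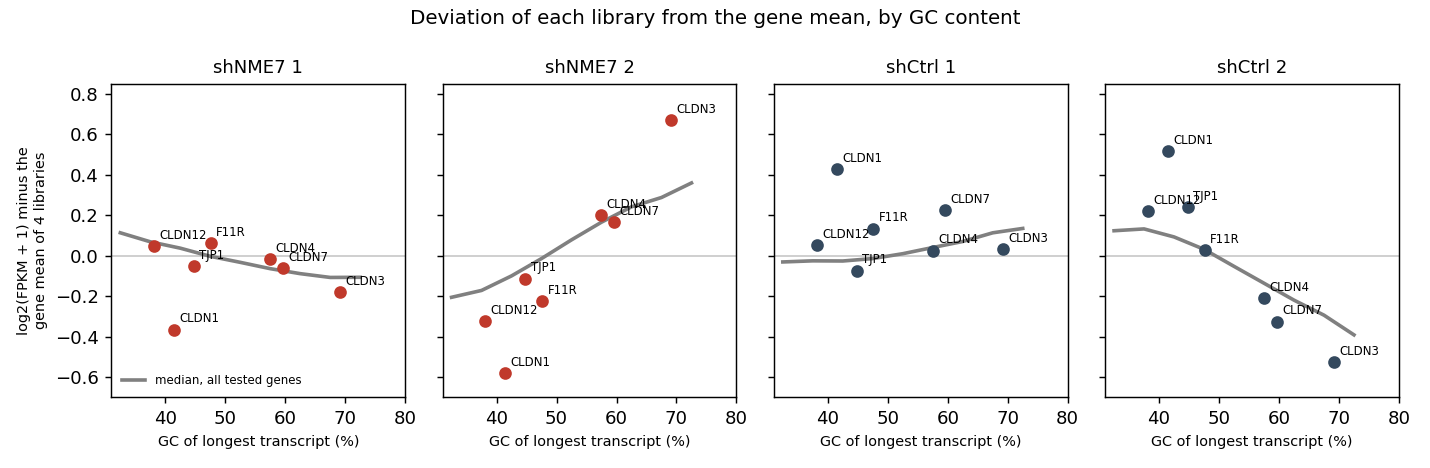
Deviation of each library from the gene mean in log2(FPKM + 1) (y axis) against the GC content of the longest transcript in percent (x axis), for the 7 members that passed the filter (points) and the median of all tested genes in GC bins (grey line). CLDN3, CLDN4 and CLDN7 lie on the same side of 0 as the grey line at their GC in all 4 panels, while CLDN1 lies at -0.37 and -0.58 in shNME7 1 and 2 and at 0.43 and 0.52 in shCtrl 1 and 2.

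The positions of the genes, from GENCODE 29 on GRCh38, bear on how far their reads can be told apart. CLDN1 (ENSG00000163347, chromosome 3, 190305701 to 190322475, minus strand) overlaps no other annotated gene. Its start faces that of CLDN16, the gene of a kidney claudin, 66 bases away on the opposite strand, and CLDN16 had 3 and 1 fragments in shNME7 1 and 2, against 2 and 0 in shCtrl 1 and 2. On the other side, 183264 bases away, the collagen prolyl hydroxylase gene P3H2 stood at 22.5 and 22.3 FPKM in shNME7 1 and 2, against 27.5 and 25.6 FPKM in shCtrl 1 and 2. CLDN3 (chromosome 7, 73768997 to 73770270, minus strand) and CLDN4 (chromosome 7, 73799542 to 73832693, plus strand) lie 29272 bases apart on opposite strands.

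CLDN7 (chromosome 17, 7259903 to 7263983, minus strand) shares 38 exon bases with ELP5 on the opposite strand, at 25.1 and 29.3 FPKM in shNME7 1 and 2, against 27.1 and 23.5 FPKM in shCtrl 1 and 2, and 269 with the gene AC003688.1, listed at 0. CLDN12 (chromosome 7, 90383721 to 90513402, plus strand) shares 347 exon bases with GTPBP10 and 201 with CDK14 on the same strand, out of 6741, and 371 and 276 with 2 further genes listed at 0. F11R (chromosome 1, 160995211 to 161021348, minus strand) shares 1853 of its 5066 exon bases with the gene AL591806.3, which was listed at no more than 0.119 FPKM in any library. The sources used here give neither the strand setting of the counting nor its rule for reads that fall in more than 1 gene. Reads of these overlaps can therefore not be assigned with certainty. A strand setting could separate the overlap of CLDN7 with ELP5, but the other overlaps above lie on the same strand. For F11R this covers 1853 of its 5066 exon bases, which limits how far its level can be trusted. TJP1 (chromosome 15, 29699367 to 29968865, minus strand) and OCLN (chromosome 5, 69492292 to 69558104, plus strand) share no exon base with another annotated gene. CLDN6 (chromosome 16, 3014712 to 3020071, minus strand) shares 40 with TNFRSF12A on the opposite strand.

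Beyond the 9 genes, 135 genes of the junction and its surroundings were taken as 11 lists, of which 76 genes passed the filter. The limma-trend test on log2(FPKM + 1) called 0 of the 76 at an adjusted p of 0.05, with 7 at an unadjusted p under 0.05. It called 0% of the 12866 genes of the table that were tested, and 859 of those had an unadjusted p under 0.05. NME7, the target of the hairpin, was among these genes and was also not called, at a log2 difference of -1.47. The smallest adjusted p of limma-trend over all tested genes was 0.31. A gene that did not pass is therefore not shown to be unchanged. The limma-voom test on recovered fragments called 0 of the 92 list genes it covered, and 0.106% of its 15112 genes. A lower mean in shNME7 was found for 50 of the 76, which is 65.8%, against 47.8% of all tested genes. Of the 76 genes, 20 (26.3%) were lower in each shNME7 library than in either shCtrl library, against 18.4% of all tested genes, and 5 (6.58%) were higher, against 17.8%. The median log2 difference was -0.07, and -0.04 with the GC and length trend removed.

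Among the other claudins, 2 of 18 passed the filter, both named after their values were seen. CLDN15, which forms sodium pores in the gut, stood at 5.04 and 4.95 FPKM in shNME7 1 and 2, against 3.91 and 4.07 FPKM in shCtrl 1 and 2, so that both shNME7 libraries were the higher ones. Its log2 difference of 0.26 did not pass, and was 0.12 with the GC and length trend removed. CLDN23 stood at 0.890 and 1.74 FPKM in shNME7 1 and 2, against 1.45 and 1.11 FPKM in shCtrl 1 and 2. For 6 of the 18 no library had a fragment, among them CLDN8, CLDN10 and CLDN17.

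Of the other membrane proteins of the tight junction, 5 of 14 were tested, 3 with a lower and 2 with a higher mean in shNME7. CXADR, a virus receptor of the junction, stood at 6.60 and 5.55 FPKM in shNME7 1 and 2, against 6.61 and 7.20 FPKM in shCtrl 1 and 2. The claudin-domain gene CLDND1 stood at 7.49 and 4.04 FPKM in shNME7 1 and 2, against 5.96 and 5.91 FPKM in shCtrl 1 and 2, and its sign turned without shNME7 2. Of the scaffolds, 10 of 15 were tested, 8 lower and 2 higher. TJP3, the gene of ZO-3, stood at 4.53 and 6.27 FPKM in shNME7 1 and 2, against 4.84 and 3.97 FPKM in shCtrl 1 and 2. YBX3, which encodes the ZO-1 partner ZONAB, stood at 36.20 and 36.17 FPKM in shNME7 1 and 2, against 39.8 and 36.3 FPKM in shCtrl 1 and 2.

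The polarity complexes, which set the place of the junction along the cell side, had 12 of 14 genes tested, 5 lower and 7 higher. SCRIB stood at 31.8 and 51.1 FPKM in shNME7 1 and 2, against 38.2 and 28.7 FPKM in shCtrl 1 and 2, and its sign turned without shNME7 2. LIN7C stood at 9.65 and 5.39 FPKM in shNME7 1 and 2, against 9.30 and 10.1 FPKM in shCtrl 1 and 2. Its log2 difference of -0.38 rested on shNME7 2, since it was -0.0086 without that library, and limma-trend called it only without shNME7 1 (difference -0.75, adjusted p 0.0108, within a range from 0.0108 to 0.999997 over its alternatives).

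Adherens junctions, the cadherin contacts below the tight junction, had 10 of 13 genes tested, 7 lower and 3 higher. CDH2, the N-cadherin gene, stood at 9.93 and 8.94 FPKM in shNME7 1 and 2, against 11.2 and 12.3 FPKM in shCtrl 1 and 2. NECTIN2 stood at 13.1 and 16.7 FPKM in shNME7 1 and 2, against 14.1 and 11.003 FPKM in shCtrl 1 and 2. Both groups thus held N-cadherin transcript and next to no CDH1. Desmosomes, the contacts that hold keratin filaments, had 6 of 8 genes tested, 5 lower and 1 higher. The desmoplakin gene DSP stood at 32.7 and 31.7 FPKM in shNME7 1 and 2, against 34.5 and 40.1 FPKM in shCtrl 1 and 2. PKP3, the plakophilin gene that was the higher one, stood at 33.4 and 53.1 FPKM in shNME7 1 and 2, against 43.9 and 30.8 FPKM in shCtrl 1 and 2, and its sign turned without shNME7 2 and without shCtrl 2. Of 6 gap junction genes 2 were tested, 1 with a lower and 1 with a higher mean in shNME7, among them the connexin gene GJC1 at a log2 difference of -0.22, which was -0.077 without shNME7 2 and -0.36 without shNME7 1. The other 4 had no fragment in any library.

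The widest differences of the lists lay among transcriptional regulators, of which 11 of 18 were tested, 6 lower and 5 higher in shNME7. SNAI2, which encodes the repressor Slug, stood at 4.12 and 3.49 FPKM in shNME7 1 and 2, against 6.003 and 6.23 FPKM in shCtrl 1 and 2. Its log2 difference of -0.57 (SE 0.14) did not pass in limma-trend (adjusted p 0.598), and limma-trend called it only without shNME7 1 (difference -0.66, adjusted p 0.0336, within a range from 0.0336 to 0.999997 over its alternatives). KLF5, a Krüppel-like factor of epithelia, stood at 43.9 and 39.2 FPKM in shNME7 1 and 2, against 57.6 and 56.8 FPKM in shCtrl 1 and 2. Its log2 difference of -0.45 (SE 0.14) did not pass either (limma-trend adjusted p 0.728).

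These 2 were among the 7 list genes at an unadjusted limma-trend p under 0.05, of which 5 were regulators. Over all tested genes, 859 of 12866 had such a p. The lists were chosen with earlier results of these data known, so nothing is read from this count. The other regulators among the 7, KLF4, EHF and SP1, were named after their values were seen. KLF4 stood at 2.85 and 2.74 FPKM in shNME7 1 and 2, against 5.22 and 3.86 FPKM in shCtrl 1 and 2. EHF, an ETS factor of epithelia, stood at 7.07 and 7.64 FPKM in shNME7 1 and 2, against 5.07 and 5.33 FPKM in shCtrl 1 and 2, and SP1, which binds the GC-box, at 19.995 and 17.5 FPKM in shNME7 1 and 2, against 23.1 and 25.5 FPKM in shCtrl 1 and 2. Their log2 differences were -0.54, 0.43 and -0.36, with limma-trend adjusted p of 0.728, 0.728 and 0.738. SNAI1, the gene of the repressor Snail, was also named after its values were seen and had 63 and 62 fragments in shNME7 1 and 2, against 55 and 36 in shCtrl 1 and 2. GRHL2, OVOL2 and CDX2, regulators of epithelial or gut genes, had no fragment in any library.

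Of the genes for actomyosin control at the junction, 10 of 12 were tested, 8 lower and 2 higher. ARHGEF2, the exchange factor GEF-H1 that binds junctions and microtubules, stood at 8.98 and 9.24 FPKM in shNME7 1 and 2, against 13.5 and 10.97 FPKM in shCtrl 1 and 2. ROCK2, a kinase that acts on myosin, stood at 22.2 and 18.4 FPKM in shNME7 1 and 2, against 24.3 and 28.3 FPKM in shCtrl 1 and 2. Their log2 differences were -0.38 and -0.36, with limma-trend adjusted p of 0.730 and 0.769, and were -0.24 for ARHGEF2 without shCtrl 1 and -0.23 for ROCK2 without shNME7 2. Of the genes for turnover and proteolysis 2 of 10 were tested, the ubiquitin ligase gene ITCH and the protease gene ADAM10, at log2 differences of -0.22 and -0.07. That of ITCH ran from -0.35 without shCtrl 1 to -0.096 without shCtrl 2. That of ADAM10 was 0.0001 without shCtrl 2 and 0.058 with the GC and length trend removed, so it has no clear direction.

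The hepatitis C virus entry factors beside CLDN1 and OCLN had 6 of 7 genes tested, 4 lower and 2 higher. EGFR stood at 27.7 and 31.6 FPKM in shNME7 1 and 2, against 36.7 and 42.1 FPKM in shCtrl 1 and 2, and its log2 difference of -0.40 did not pass (limma-trend adjusted p 0.730).

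**Figure D4:**
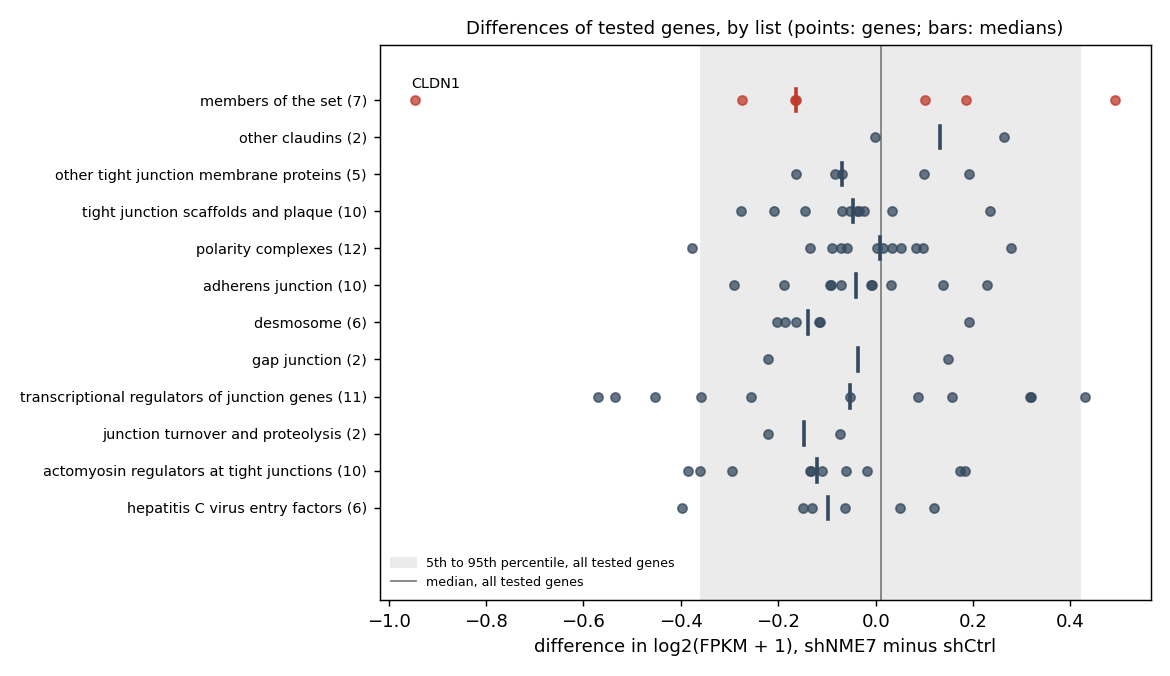
Difference in log2(FPKM + 1), shNME7 minus shCtrl (x axis), of each tested gene (points) with the median of its list (bars). The top row holds the 7 members, with CLDN1 at -0.95, the grey band spans the 5th to the 95th percentile of all tested genes (-0.36 to 0.42), and the list genes run from -0.57 to 0.43.

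The genes whose profile over the 4 libraries lay nearest to that of CLDN1, by Euclidean distance of centred log2(FPKM + 1) values among 7675 others with a mean of at least 5 FPKM, were PPP1R3C, NDRG1 and PSAT1. Their distances were 0.16, 0.17 and 0.20. PPP1R3C, whose product brings a phosphatase to glycogen, stood at 9.12 and 6.90 FPKM in shNME7 1 and 2, against 14.5 and 15.2 FPKM in shCtrl 1 and 2. NDRG1, a gene induced by hypoxia, stood at 51.5 and 40.3 FPKM in shNME7 1 and 2, against 84.5 and 81.4 FPKM in shCtrl 1 and 2. PSAT1, an enzyme gene of serine synthesis, stood at 120 and 102 FPKM in shNME7 1 and 2, against 193 and 187 FPKM in shCtrl 1 and 2. With 4 libraries such a likeness is a description of 4 values each.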

How the data were processed

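The authors deposited 1 table of FPKM values per library, per the file headers, with 58735 genes each. Alignment was with HISAT2 2.0.5 and the build was named hg18, per the submitters' processing notes. No source used here gives the tool, annotation or strand setting of the counting. Every gene ID was found in GENCODE 29 (GRCh38), which supplied names, exon lengths and positions. FPKM times exon length gave whole fragments within 0.01 for 100% of genes above 0 in each library. The values therefore match GENCODE 29 exon lengths on GRCh38, which is not the build named in the processing notes. The 4 libraries were grouped by title.

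The test was limma-trend (limma 3.58.1, R 4.3.3) on log2(FPKM + 1), for 12866 genes with a mean of at least 1 FPKM, two-sided, with Benjamini-Hochberg adjustment over all of them and a threshold of 0.05. A fold change on this scale understates the change of low genes. limma-voom used recovered fragments (mean of at least 10), scaled by the totals that the FPKM values imply. GC content was that of the longest transcript, and the trend was a loess fit of span 0.3. The planned count test did not apply.

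The members, lists and alternatives were chosen with earlier results of these data known. By rule, the text names NME7, all 9 members, per list any called gene or else up to 2 tested genes with the largest absolute difference whose higher group mean reached 5 FPKM, and the 3 genes nearest to CLDN1. The values of some genes that this rule covers are not reported here. Other genes named were chosen after their values were seen. The alternatives were a pseudocount of 0.1, no filter, the replicate block, each library left out, 2 other scalings, limma-voom and the GC and length correction. The crossed pairing was added later.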

Additional observations from a re-analysis of the deposited data

How the results depend on the processing

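The log2 difference of CLDN1, on which the set was chosen, was -1.12 with a pseudocount of 0.1, -1.13 with values rescaled to TPM and -1.15 in limma-voom, against -0.95 in the reported fit. It ran from -1.05 to -0.84 with each library left out. The number of genes called by limma-trend, 0 with all libraries, was 122 with the replicate block, 1 with the GC and length trend removed and 0 with both together, and limma-voom called 16. It ran from 112 to 632 with each library left out, when the lone library of a group was assumed to vary like the others. Calls among the list genes ran from 0 to 2 in the same fits, the 2 being LIN7C and SNAI2 without shNME7 1, and were 0 under the other alternatives, the replicate block included. Same-numbered libraries deviated in opposite directions (correlation -0.347 over genes), and pairing shNME7 1 with shCtrl 2 called 0 genes, a setting chosen after seeing the data. Sign changes without a call were seen for CLDND1 (0.0138), YBX3 (0.0545) and ADAM10 (0.0582) with the GC and length trend removed, with or without the replicate block. With each library left out, the log2 differences ran from -0.460 to 0.291 for CLDND1, from -0.055 to 0.612 for SCRIB, from -0.135 to 0.517 for PKP3 and from -0.146 to 0.000102 for ADAM10. The cause of these changes was not tested. Depth limits OCLN, CLDN3 and CLDN6, with at most 52 fragments in a library.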
